A study of Mus musculus with 16 samples.

Results

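The zinc finger gene Zswim6 and 3 of its relatives, Zswim4, Zswim5 and Zswim8, were followed through RNA from astrocyte ribosomes and from whole cortical tissue of naïve and acutely stressed mice. The members were selected by symbol, as the rows carrying these symbols in every library, which gave 4 of the 24060 genes listed. Zswim6 was chosen by its measured CPM, because its RNA rose after stress far more in the ribosome-bound fraction than in total RNA. The contrast between these differences draws on all 4 groups, so every comparison of Zswim6 is given as a description without a test. The relatives were tested in every comparison.

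All 16 libraries came from the somatosensory cortex of mice labelled C57BL/6J and Aldh1l1CreERT2-RiboTag, aged 3 months, controls included, in which tamoxifen had been injected at 2 months so that cells expressing Aldh1l1, here astrocytes, carried an HA tag on the ribosomal protein Rpl22. Stressed mice swam for 20 min and recovered for 90 min in the home cage, whereas naïve mice stayed in the home cage. From the lysate, one portion was kept as total RNA (INPUT) and the other was immunoprecipitated for the tag (IP), so that the 4 groups were naïve and stress IP and naïve and stress INPUT, with 4 libraries in each. The labels put the stress 1 month after tamoxifen and the methods put it earlier, both sexes were used, and neither the sex of each mouse nor the pairing of IP with INPUT is given per library. INPUT holds all cell types of the tissue, so fewer cells of a type and less RNA per cell cannot be told apart in it.

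The SWIM domain is a small zinc-binding fold, named after SWI2/SNF2 and MuDR proteins, in which 3 cysteines and 1 histidine hold the metal. ZSWIM8, the best understood member, is the substrate receptor of a cullin-3 ubiquitin ligase that removes Argonaute proteins, and thereby the microRNA they carry, when that microRNA is paired with a highly complementary target RNA. ZSWIM4, ZSWIM5 and ZSWIM6 are close relatives of one another with less settled roles, and ZSWIM6 is known for its part in the development of the forebrain, the striatum above all, and for human developmental disorders.

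The coding stretch of the SWIM motif shows how the 3 relatives differ in the feature that names the family. It was located in the longest stretch without a stop codon in the GENCODE M21 transcripts, with no start codon required. The pattern was cysteine, any residue, cysteine, a spacer, cysteine, any residue, histidine. The codons of the 3 cysteines and of the histidine are in capitals, read 5′ to 3′ on the coding strand.
Zswim5: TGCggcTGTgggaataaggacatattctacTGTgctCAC
Zswim4: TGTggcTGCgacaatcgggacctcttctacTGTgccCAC
Zswim8: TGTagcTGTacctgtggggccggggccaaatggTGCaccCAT

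Zswim5 and Zswim4 shared a spacer of 7 codons in a stretch of 39 bases, at bases 796 to 834 and 499 to 537 of their transcripts. In Zswim8 the stretch was 42 bases at positions 853 to 894 with a spacer of 8 codons, and the same pattern could also be read from base 859 with a spacer of 6 codons. The stretches without a stop codon had 1212 codons in Zswim6, 1216 in Zswim5, 1118 in Zswim4 and 1929 in Zswim8. They can include untranslated codons before the start codon, so they are not protein lengths.

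On GRCm38, Zswim6 (ENSMUSG00000032846.10) lay at chr13:107724617-107890064 on the minus strand, with 14 exon blocks and 5550 exon bases in a span of 165448 bases. GENCODE M21 gives it the type processed transcript, whereas RefSeq lists it as protein coding. Zswim5 lay at chr4:116877376-116989264 on the plus strand with 14 exon blocks and 5582 exon bases, and Zswim4 at chr8:84210678-84237055 on the minus strand with 14 exon blocks and 4625 exon bases. Zswim8 was the most compact in the genome, at chr14:20707552-20723619 on the plus strand, with 20 exon blocks and 8590 exon bases. None of the 4 shared exon bases with another annotated gene. Of their 69-base exon windows, 0 of 5614 in Zswim6, 0 of 5514 in Zswim5, 0 of 4557 in Zswim4 and 0 of 9167 in Zswim8 occurred in another gene, 69 bases being the read length, so single reads would not be split between the relatives.

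The promoter of Zswim6 is shown because this is the member whose RNA differed most between stressed and naïve mice. The 250 bases before its RefSeq start (GRCm38.p6, chr13:107890065-107890314, minus strand) read as follows, with the only match to the motifs searched in capitals.
Zswim6 promoter: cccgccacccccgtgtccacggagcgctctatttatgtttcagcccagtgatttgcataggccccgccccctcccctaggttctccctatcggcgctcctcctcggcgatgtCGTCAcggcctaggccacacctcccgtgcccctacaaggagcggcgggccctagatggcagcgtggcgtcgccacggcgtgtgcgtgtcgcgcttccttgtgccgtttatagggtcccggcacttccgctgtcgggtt

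The match was TGACG, the half-site of the cAMP response element, on the opposite strand and starting 138 bases before the start site (position -138). This motif was added after the sequence had been seen, and 17.8% of 32851 mouse promoters of the same length hold it on either strand. On both strands, the windows of all 4 genes had 0 matches to ACANNNTGT, the core of the glucocorticoid receptor palindrome (5.84% of promoters), and to AGAACA, its half-site (16.1%). They likewise had 0 matches to AAAGGTCA for NR4A receptors (1.34%), TGACGTCA for the full cAMP response element, which contains TGACG (1.55%), TGANTCA for AP-1 (6.75%), TGTTTAC for FoxO factors (3.17%) and CACGTG, the E-box (6.02%). GC content was 66% in Zswim6, 82% in Zswim5, 59.2% in Zswim8 and 56% in Zswim4 against a median of 52.4% over all promoters. The windows held 26, 47, 19 and 15 CpG dinucleotides in that order, against a median of 6. A missing match says only that these letters were not in this window.

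The libraries held 16392876 to 25814364 reads on genes (median 21167241). Levels are given as CPM, that is reads per 1000000 reads on genes, with no scaling for gene length unless stated. The smallest count for any of the 4 genes in any library was 328 reads, and for Zswim6 it was 660 reads. The label of the IP held in its markers: 6 of 6 astrocyte genes were higher in IP than in INPUT, and their summed level in IP was 82260 to 86864 CPM without and 79511 to 91144 CPM with stress. All 6 neuronal markers were lower in IP, where their sum was 429 to 553 CPM in naïve and 337 to 494 CPM in stress libraries against 9734 to 11400 CPM in stress INPUT. No marker of astrocytes, neurons, oligodendrocytes, microglia or endothelium passed the test between stressed and naïve mice in either fraction.

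In naïve mice, Zswim6 in IP was 32.3, 31.3, 34.0 and 33.2 CPM in replicates 2, 8, 11 and 13. In stressed mice it was 81.9, 77.3, 94.3 and 83.7 CPM in replicates 4, 5, 6 and 15. The lowest stress IP library was thus above the highest naïve IP library by more than the whole range within either group. The means were 84.3 ± 7.20 CPM in stress IP and 32.7 ± 1.17 CPM in naïve IP (SD, n = 4), a ratio of 2.58. On log2(CPM + 0.1), the scale of all fitted differences below, this was 1.36 (SE 0.07, 95% interval 1.21 to 1.51).

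Total RNA showed a smaller difference in the same direction. Zswim6 in INPUT was 41.0, 40.6, 35.4 and 37.1 CPM in naïve replicates 3, 7, 14 and 16, and 49.3, 46.7, 42.4 and 46.3 CPM in stress replicates 1, 9, 10 and 12. These groups did not overlap either, but the gap between the lowest stress and the highest naïve library was only from 42.4 to 41.0 CPM. The means were 46.2 ± 2.86 and 38.5 ± 2.70 CPM, a ratio of 1.20 and a log2 difference of 0.26 (SE 0.07, 95% interval 0.11 to 0.42). The log2 stress difference was larger in IP than in INPUT by 1.10 (SE 0.10, 95% interval 0.89 to 1.31).

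**Figure D1:**
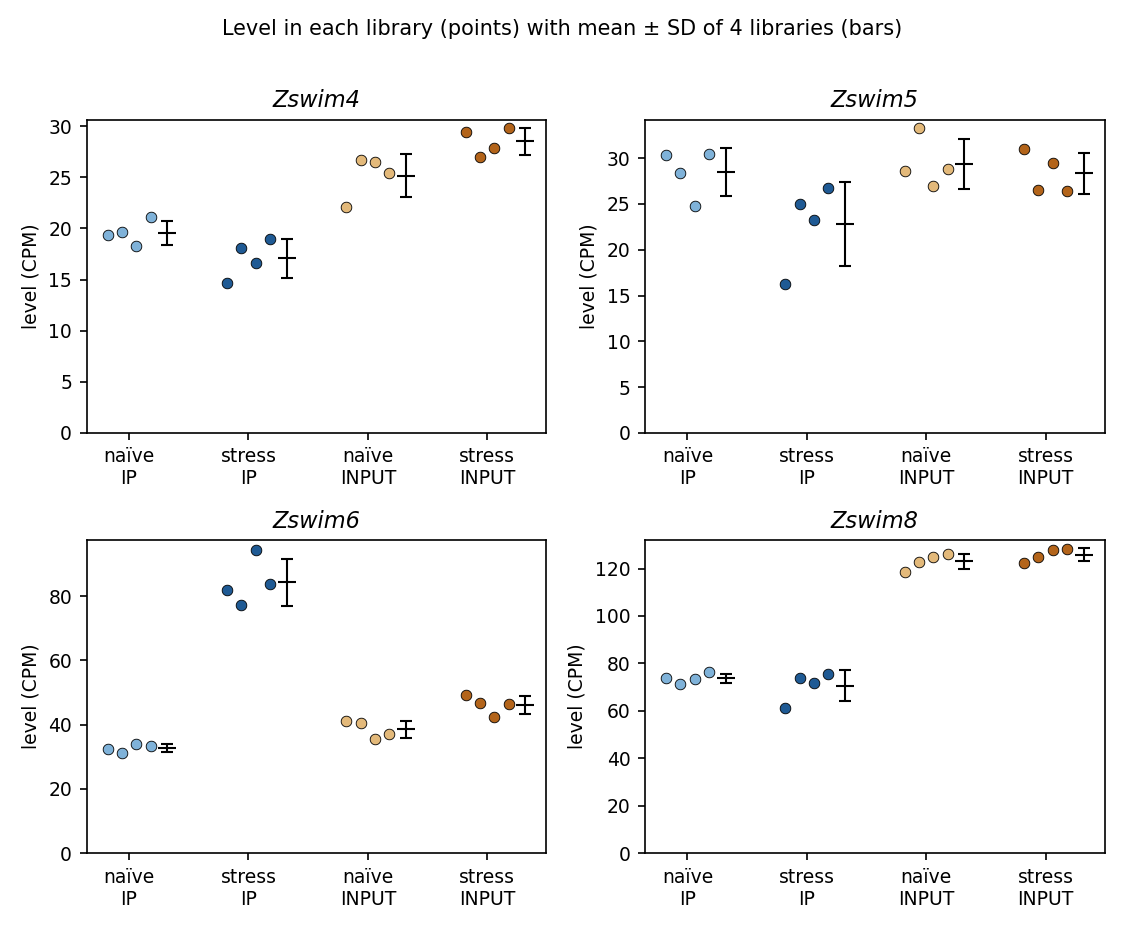
Level in CPM of each member in each of the 16 libraries, in 4 panels with their own vertical axes starting at 0. Points are libraries and bars the mean ± SD of 4 libraries. Zswim6 in stress IP lies at 77.3 to 94.3 CPM, above its other 12 libraries, and stress IP replicate 4, the leftmost point of its group, is the lowest stress IP library in the other 3 panels.

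Among 12501 genes compared in IP, of which 0.44% passed an adjusted p of 0.05 in either direction and 5% had groups that did not overlap, the log2 difference of Zswim6 was the 12th largest. The genes nearest to it in that order among those past the threshold were Nr4a1, an immediate early nuclear receptor (1.45), and Bambi, a pseudoreceptor that dampens TGF-beta signalling (1.39), above it, and Irs2, an adaptor of the insulin receptor (1.30), and Rasl11a, a small GTPase (1.20), below it. Their INPUT differences were 0.14, 0.57, 0.53 and 0.61. In INPUT, where 0.0442% of 13577 genes passed and 2.87% had groups that did not overlap, Zswim6 was 454th. For the difference between both stress effects, where 0.0225% of 13341 genes passed, it was 11th. These places rest on the contrasts by which the gene was picked, so they place it and test nothing. Leaving out each library in turn gave 1.31 to 1.40 in IP, 0.22 to 0.30 in INPUT and 1.04 to 1.14 for the difference between them.

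Among the 3 relatives, 0 of 3 passed the adjusted threshold for stress in IP, 0 of 3 in INPUT and 0 of 3 for the difference between both effects by limma, and at an unadjusted p under 0.05 there was 1 in IP (Zswim5), 1 in INPUT (Zswim4) and 1 for the difference (Zswim4), where 8.27%, 5.03% and 4.71% of all genes stood past that p. Over all genes the shares past the adjusted threshold were the 0.44%, 0.0442% and 0.0225% given above, so that 0 of 3 lies where most genes lie.

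Zswim5 in IP was 30.3, 28.4, 24.8 and 30.4 CPM in naïve replicates 2, 8, 11 and 13 and 16.2, 25.0, 23.2 and 26.8 CPM in stress replicates 4, 5, 6 and 15. The stress values reached lower, and the groups overlapped. The log2 difference was -0.34 (SE 0.14, 95% interval -0.65 to -0.04, limma adjusted p = 0.55), and without stress IP replicate 4 it was -0.19. In INPUT, Zswim5 was 28.6, 33.3, 26.9 and 28.8 CPM in naïve and 31.0, 26.6, 29.5 and 26.4 CPM in stress libraries. Those groups covered nearly the same range, with a log2 difference of -0.05 (95% interval -0.23 to 0.13, limma adjusted p = 0.99). Its stress difference in IP minus that in INPUT was -0.29 (95% interval -0.65 to 0.07, limma adjusted p = 1.0).

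Like Zswim8 below, Zswim4 went in opposite directions in the fractions, without passing in either. In IP it was 19.3, 19.6, 18.3 and 21.1 CPM in naïve and 14.6, 18.0, 16.7 and 19.0 CPM in stress libraries, and 1 of the 4 stress libraries lay within the naïve range. The log2 difference was -0.20 (SE 0.10, 95% interval -0.41 to 0.01, limma adjusted p = 0.62), and -0.13 without stress IP replicate 4. In INPUT it was 22.1, 26.7, 26.5 and 25.4 CPM in naïve and 29.4, 27.0, 27.9 and 29.8 CPM in stress libraries. Here all stress values lay above all naïve values, with a log2 difference of 0.18 (SE 0.08, 95% interval 0.01 to 0.35, limma adjusted p = 0.97). The exact two-sided permutation test gave p = 0.029, the smallest that 4 against 4 libraries allow. This p follows from groups without overlap, which 2.87% of 13577 genes had in INPUT. In IP the same permutation test gave p = 0.057 for Zswim4. It gave 0.086 in IP and 0.63 in INPUT for Zswim5, and 0.54 and 0.29 for Zswim8. For Zswim4 the difference between both stress effects was -0.38 (SE 0.12, 95% interval -0.64 to -0.13, limma adjusted p = 0.74).

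Zswim8, the ligase subunit for microRNA decay, had the smallest stress difference of the 4 genes in both fractions. In INPUT it was 119, 123, 125 and 126 CPM in naïve and 122, 125, 128 and 128 CPM in stress libraries, a log2 difference of 0.03 (SE 0.05, 95% interval -0.07 to 0.14, limma adjusted p = 0.99). In IP it was 73.8, 71.5, 73.2 and 76.4 CPM in naïve and 61.1, 74.1, 71.7 and 75.5 CPM in stress libraries. Apart from replicate 4 at 61.1 CPM, the stress values fell within the naïve range. The log2 difference was -0.07 (SE 0.07, 95% interval -0.22 to 0.09, limma adjusted p = 0.86), and 0.00 without that library. Its stress difference in IP minus that in INPUT was -0.10 (95% interval -0.28 to 0.08, limma adjusted p = 1.0).

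Stress IP replicate 4 was the lowest of its group for all 3 relatives and the second lowest for Zswim6. Its astrocyte marker sum was the highest of the IP libraries, at 91144 CPM, and its neuronal marker sum was 375 CPM. Over the 4 libraries, the 6 neuronal markers were all lower in stress IP than in naïve IP, by log2 differences of -0.33 to -0.21, and 0 of 6 passed. The 5 endothelial markers summed to 8.69 to 12.4 CPM in naïve and 6.63 to 8.68 CPM in stress IP, without overlap, and 0 of the 2 tested passed. All 5 microglial markers tested were lower in stress IP (median -0.31, 0 of 5 passed), their sums overlapping at 14.9 to 19.2 and 12.5 to 21.4 CPM, and oligodendrocyte sums were 123 to 176 and 134 to 203 CPM. The part of any of these measures in the lower IP values of Zswim4 and Zswim5 was not tested.

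**Figure D2:**
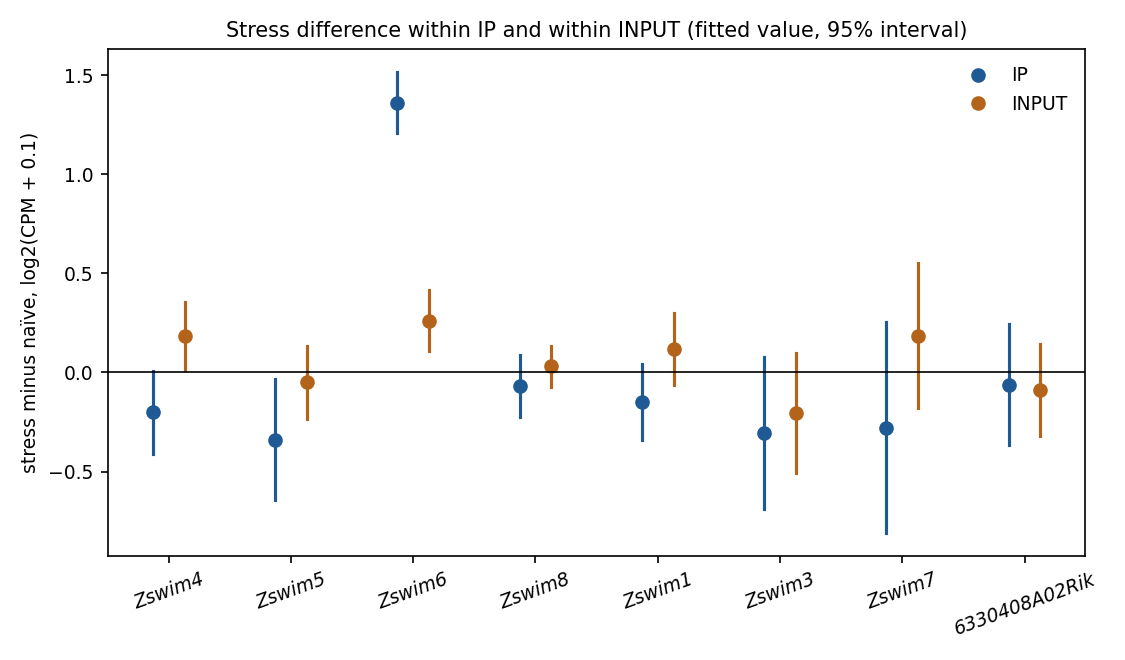
Stress minus naïve on log2(CPM + 0.1) for the 4 members and 4 further family genes, within IP (blue) and within INPUT (orange). Points are fitted values and lines 95% intervals, each from 4 against 4 libraries. Zswim6 stands at 1.36 in IP and 0.26 in INPUT, while every other point lies between -0.34 and 0.19.

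Of the other family genes, Zswim1, Zswim3, Zswim7 and 6330408A02Rik, the symbol under which Zswim9 is listed, were tested. For stress 0 of these 4 passed in IP or in INPUT, where 0.44% and 0.0442% of all genes did. Their log2 differences were -0.31 to -0.06 in IP and -0.21 to 0.19 in INPUT, beside medians over all genes of 0.00 in both fractions. Like Zswim4 and Zswim8, Zswim1 (-0.15 in IP, 0.12 in INPUT) and Zswim7 (-0.28, 0.19) were lower in IP and higher in INPUT. Zswim3 (-0.31, -0.21) and 6330408A02Rik (-0.06, -0.09) were lower in both, as was Zswim5. Zswim7 had 30 to 117 reads per library and the widest interval of the 4. Zswim2 had 0 or 1 read in each library and was not tested, and 3 reads, the limit that a count of 0 allows, correspond to at most 0.183 CPM.

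In naïve mice, IP was compared with INPUT to set the share of each RNA among reads from astrocyte ribosomes beside its share in the tissue. This does not give the amount of an RNA on ribosomes. Zswim6 was 32.7 ± 1.17 CPM in IP and 38.5 ± 2.70 CPM in INPUT, so that all IP values lay below all INPUT values (31.3 to 34.0 against 35.4 to 41.0 CPM). The log2 difference was -0.23 (SE 0.07, 95% interval -0.38 to -0.08). These values entered the contrast by which the gene was chosen, so no p is given. In this comparison 87.7% of 13339 genes passed, 23.7% higher and 64% lower in IP, and 83.7% had groups that did not overlap. After rescaling by median ratios the split was 41.9% higher and 42.3% lower. Thus a passing difference was the rule among genes, and the median gene was lower in IP by a log2 value of -0.64. Zswim6 lay above that median by 0.40, and when the libraries were rescaled by median ratios against their common mean its difference turned to 0.40 in favour of IP.

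Zswim8 was 73.7 ± 2.03 CPM in naïve IP and 123 ± 3.22 CPM in naïve INPUT, a log2 difference of -0.74 (SE 0.05, limma adjusted p = 7.2e-09) that was close to the median of all genes. After median-ratio rescaling it was -0.10 and no longer passed (limma adjusted p = 0.11). Zswim4 was 19.6 ± 1.17 CPM in IP and 25.2 ± 2.14 CPM in INPUT, with a log2 difference of -0.36 (SE 0.08, limma adjusted p = 0.0013) that turned to 0.28 with the rescaling. Zswim5 was 28.5 ± 2.63 and 29.4 ± 2.74 CPM, with overlapping groups and a difference of -0.05 (95% interval -0.24 to 0.15, limma adjusted p = 0.63), which turned to 0.59. The order of the members on this scale, from Zswim5 through Zswim6 and Zswim4 to Zswim8, was the same with the rescaling, whereas the sign for Zswim4, Zswim5 and Zswim6 differed between the scalings.

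In stressed mice, 86.1% of 13333 genes passed between IP and INPUT, 23.6% higher and 62.5% lower, or 40.8% and 41.4% after the rescaling. These comparisons share their libraries with the stress comparisons above. Zswim6 was now higher in IP than in INPUT, at 84.3 ± 7.20 against 46.2 ± 2.86 CPM, without overlap and by a log2 difference of 0.86 (SE 0.08, 95% interval 0.70 to 1.03), which was 1.49 with median-ratio rescaling. Zswim8 was 70.6 ± 6.53 and 126 ± 2.72 CPM, a difference of -0.84 (SE 0.07, limma adjusted p = 1.9e-07) that was -0.21 with the rescaling (adjusted p = 0.023). Zswim4 was 17.1 ± 1.89 and 28.5 ± 1.34 CPM, a difference of -0.74 (SE 0.09, limma adjusted p = 8.7e-06) that was -0.12 and did not pass with the rescaling (adjusted p = 0.26). Zswim5 was 22.8 ± 4.60 and 28.4 ± 2.25 CPM, a difference of -0.34 (SE 0.14, limma adjusted p = 0.037). That call was lost without stress IP replicate 4 (-0.18, adjusted p = 0.087), without stress IP replicate 6 (-0.35, 0.054), without stress INPUT replicate 1 (-0.29, 0.096) and without stress INPUT replicate 10 (-0.32, 0.080), and the sign turned with the rescaling (0.29). The 4 further family genes were lower in IP in both conditions, 4 of 4 past the threshold each time, with medians of -1.04 in naïve and -1.25 in stressed mice. With the rescaling 3 of 4 passed in either condition, Zswim7 being lost in naïve mice (-0.07, adjusted p = 0.78) and 6330408A02Rik in stressed mice (-0.31, adjusted p = 0.070).

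**Figure D3:**
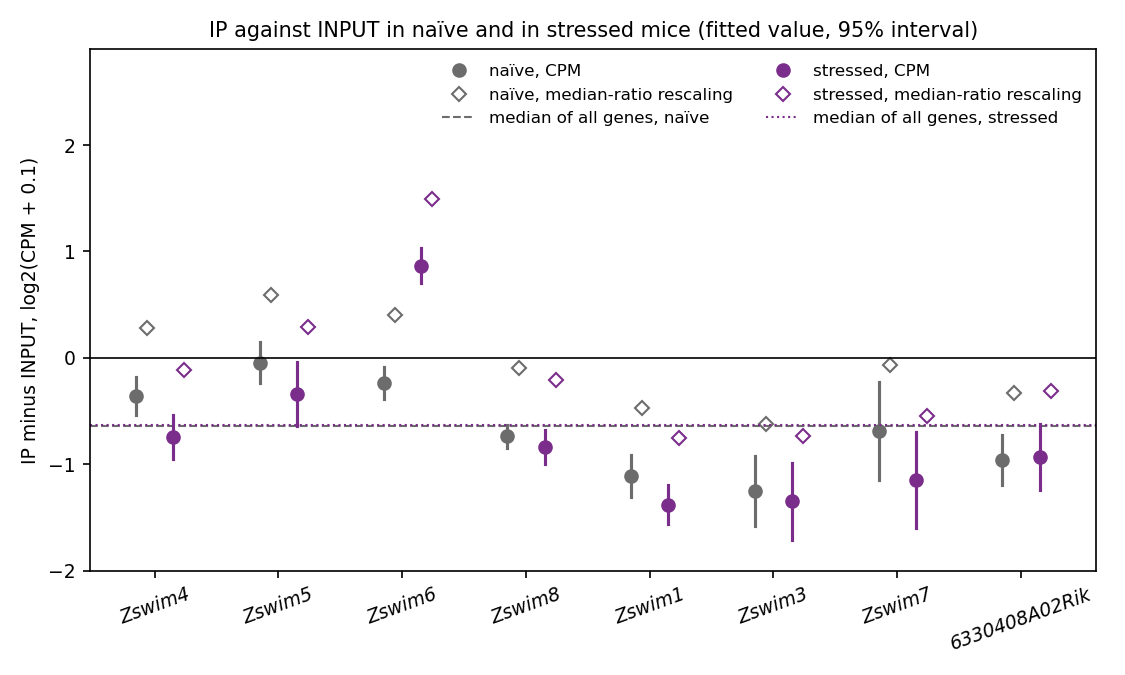
IP minus INPUT on log2(CPM + 0.1) for the same 8 genes in naïve (grey) and stressed mice (purple). Filled points with lines are fitted values with 95% intervals, open diamonds the values after median-ratio rescaling, and the dashed and dotted lines, which coincide, the medians over all genes. Zswim6 is the one gene that is on opposite sides of 0 in naïve (-0.23) and stressed mice (0.86) on the CPM scale, and after rescaling it is above 0 in both. Zswim4 is then above 0 in naïve and below 0 in stressed mice.

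Per kilobase of exon, the order of the members differed between stressed and naïve IP. Lengths were the exon bases of all GENCODE transcripts together, of which Zswim8 had 14, Zswim6 4, and Zswim5 and Zswim4 1 each. Reads were counted on RefSeq genes instead, so order and shares across genes depend on the lengths used. In naïve IP the order was Zswim8 (8.58 CPM per kb), Zswim6 (5.89), Zswim5 (5.10) and Zswim4 (4.24), and only the last neighbours, Zswim5 and Zswim4, overlapped. In stress IP it was Zswim6 (15.2 CPM per kb), Zswim8 (8.22), Zswim5 (4.08) and Zswim4 (3.69), again with overlap between the last neighbours alone. In INPUT, Zswim8 (14.3 in naïve and 14.7 CPM per kb in stress libraries) stood above Zswim6 (6.94 and 8.32), Zswim4 (5.44 and 6.17) and Zswim5 (5.27 and 5.08). Zswim4 and Zswim5 overlapped there in naïve mice and did not in stressed mice. The share of Zswim6 in the summed level of the 4 genes per kilobase was 24.8% ± 1.20 in naïve IP, 48.8% ± 3.85 in stress IP, 21.7% ± 1.52 in naïve INPUT and 24.3% ± 1.26 in stress INPUT (SD, n = 4).

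**Figure D4:**
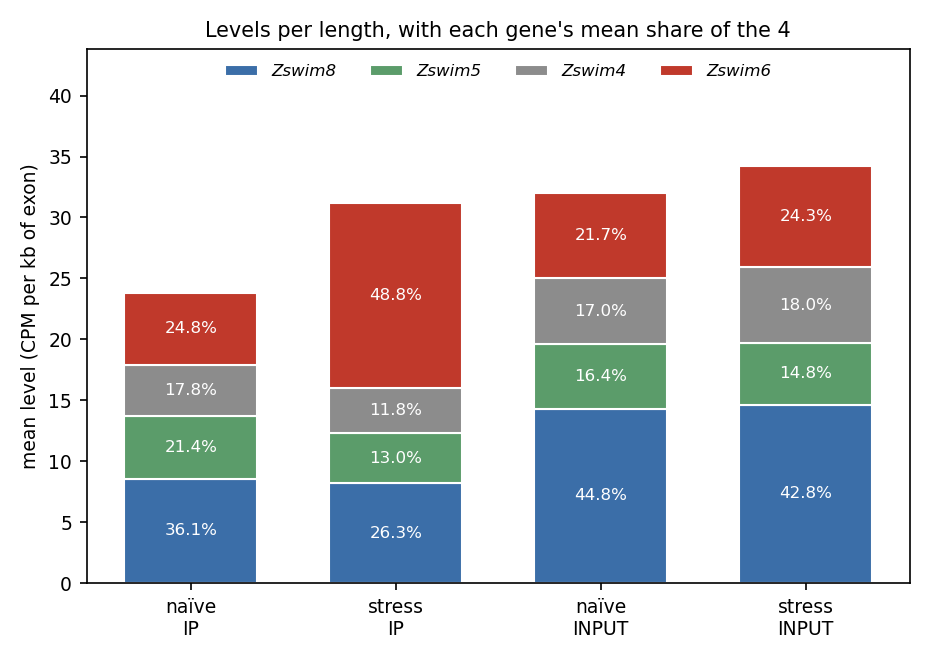
Mean level of the 4 members in CPM per kilobase of exon, stacked for each group of 4 libraries, with each gene's mean share of the stack in percent. The red segment of Zswim6 makes up 48.8% of the stack in stress IP and 21.7% to 24.8% in the other groups. These shares depend on the exon lengths used.

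Genes of cullin ubiquitin ligases in general and of neddylation, not only those of the ZSWIM8 ligase, were examined next. Cullin-3, the scaffold of the ZSWIM8 ligase, had an IP mean of 194 CPM without and 200 CPM with stress (log2 difference 0.04, 95% interval -0.07 to 0.16), and 197 CPM in naïve INPUT. Of the 14 genes for cullins, elongins, RING subunits and the enzymes of neddylation, which activates cullins, 0 passed for stress in IP or in INPUT. Over all genes 0.44% and 0.0442% passed there. An unadjusted limma p under 0.05 was found for 3 of the 14 in IP and 0 in INPUT, beside 8.27% and 5.03% of all genes. The median log2 difference of the 14 was 0.06 in IP, over a range of -0.06 to 0.22, beside 0.00 for all genes. Between IP and INPUT in naïve mice 0 were higher and 12 lower, beside 23.7% and 64% of all genes. The lowest were Ube2m, the neddylation conjugating enzyme (-1.59), Tceb1, elongin C (-1.57), and Nedd8 itself (-1.33). Cul3 (-0.02) and Uba3, a subunit of the activating enzyme (0.07), did not pass. In stressed mice 1 was higher, Uba3 (0.29, SE 0.06, limma adjusted p = 0.00054), and 12 were lower, beside 23.6% and 62.5% of all genes. With median-ratio rescaling 5 were higher and 8 lower in naïve mice, and 5 and 7 in stressed mice. Over all genes the rescaled split was 41.9% and 42.3% in naïve and 40.8% and 41.4% in stressed mice. Cul3 and Uba3 were then among the higher genes in both conditions, and Ube2m, Tceb1 and Nedd8 remained lower.

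The Argonaute targets of the ZSWIM8 ligase, the Tnrc6 genes and RNAs that trigger microRNA decay formed the next group. Of the Argonaute genes, the Tnrc6 scaffold genes and 2 RNAs known to trigger microRNA decay, 9 in all, 0 passed for stress in IP or in INPUT. Over all genes 0.44% and 0.0442% passed there. An unadjusted limma p under 0.05 was found for 1 of the 9 in IP and 0 in INPUT, beside 8.27% and 5.03% of all genes. Ago2, the slicing Argonaute, had an IP mean of 84.2 CPM without and 81.8 CPM with stress (-0.04, 95% interval -0.18 to 0.10). 1700020I14Rik, the Cyrano transcript that directs decay of miR-7, had IP means of 17.2 ± 1.74 CPM without and 17.5 ± 2.99 CPM with stress, against 142 ± 14.6 CPM in naïve INPUT. Nrep, whose 3′ end directs decay of miR-29, was 7.59 ± 2.29, 7.56 ± 1.33 and 89.9 ± 8.12 CPM in those groups. Both were lower in naïve IP than in naïve INPUT, by log2 differences of -3.04 and -3.60, as was Tnrc6c (-0.93), whereas Ago3 (1.10), Tnrc6b (0.59) and Tnrc6a (0.33) were higher. These 6 calls kept their direction with the rescaling, and the other 3, Ago1, Ago2 and Ago4, then passed as higher. Over all genes 23.7% were higher and 64% lower, and 41.9% and 42.3% with the rescaling.

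Substrate receptors of other ubiquitin ligases served as a comparison group. For stress 0 of 18 tested in IP and 0 of 19 tested in INPUT passed, where 0.44% and 0.0442% of all genes did. An unadjusted limma p under 0.05 was found for 4 in IP and 2 in INPUT, beside 8.27% and 5.03% of all genes. The median log2 difference of the receptors in IP was -0.01. The largest was that of Spsb1, a receptor that targets inducible nitric oxide synthase, at 1.26 (SE 0.31, 95% interval 0.58 to 1.93, limma adjusted p = 0.16). Spsb1 was 7.10, 9.99, 27.3 and 11.0 CPM in naïve IP replicates 2, 8, 11 and 13 and 32.7, 27.4, 29.0 and 27.0 CPM in stress IP replicates 4, 5, 6 and 15. Naïve IP replicate 11 thus lay within the stress range for Spsb1, while for Zswim6 the same library was at 34.0 CPM, well below it. The other naïve IP libraries were all below the stress range for Spsb1, so its groups overlapped through replicate 11 alone. Without replicate 11 the difference of Zswim6 was 1.38, and that of Spsb1 is not given. In naïve mice 3 of these receptors were higher in IP, Spsb4 (1.45), Klhl13 (1.30) and Vhl, the von Hippel-Lindau receptor for hydroxylated hypoxia-inducible factor (0.99), and 14 were lower, the most so Kctd13 (-3.23), Socs2 (-2.83) and Socs3 (-2.42). With the rescaling 5 were higher and 12 lower, and these 6 genes kept their direction. Over all genes 23.7% were higher and 64% lower, and 41.9% and 42.3% with the rescaling.

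**Figure D5:**
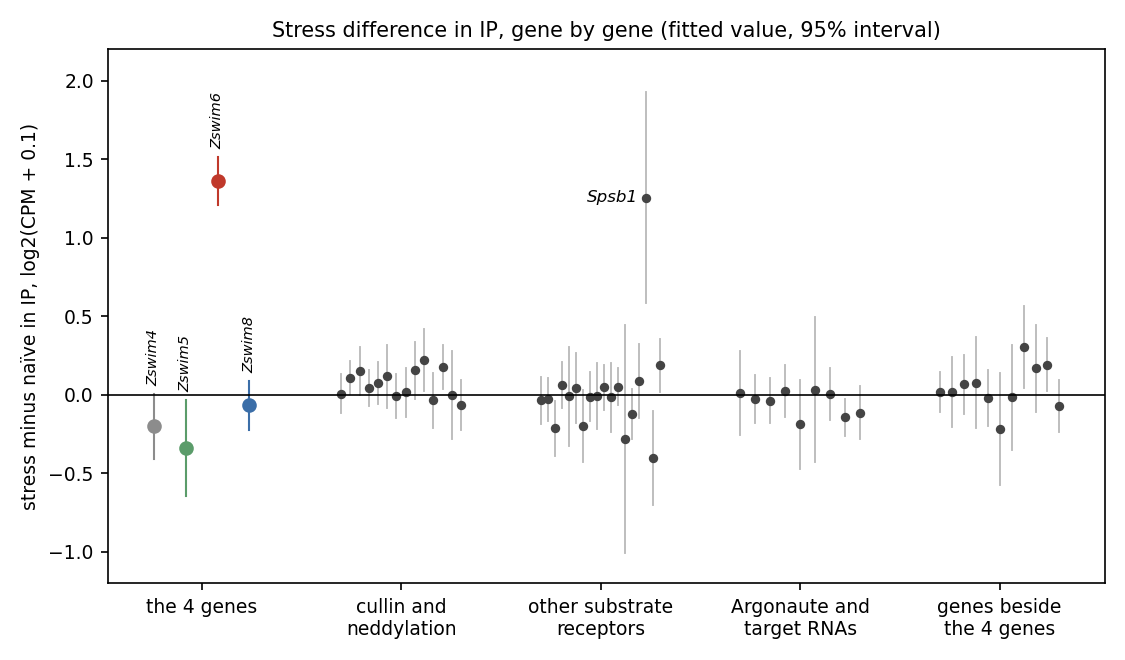
Stress minus naïve in IP on log2(CPM + 0.1) for the 4 members (colours), 14 cullin and neddylation genes, 18 other substrate receptors, 9 Argonaute, Tnrc6 and trigger RNA genes and 11 genes beside the members (grey). Points are fitted values and lines 95% intervals. Zswim6 lies at 1.36, Spsb1 at 1.26 with an interval from 0.58 to 1.93, and all other points between -0.40 and 0.30.

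The genes beside the members on the chromosome were compared in the same way. Of the nearest 2 genes with a row on each side of each member, 16 in all, 11 were tested for stress in IP and 11 in INPUT. In either fraction 0 passed, beside 0.44% and 0.0442% of all genes. An unadjusted limma p under 0.05 was found for 2 in IP and 0 in INPUT, beside 8.27% and 5.03% of all genes. The 2 were Smim15 and Ndst2, which lies 111 bases from Zswim8. Ndst2 had IP means of 8.50 CPM without and 10.5 CPM with stress, with overlapping groups. Its log2 difference was 0.30 (95% interval 0.04 to 0.57, limma adjusted p = 0.53), the largest of the neighbours in IP. Of the neighbours of Zswim6, Smim15 at a distance of 154382 bases had IP means of 39.7 ± 1.68 CPM without and 45.4 ± 4.20 CPM with stress, with a log2 difference of 0.19 (95% interval 0.02 to 0.36, limma adjusted p = 0.54) and overlapping groups. Ndufaf2, an assembly factor of respiratory complex I at 112651 bases, was 7.94 ± 1.06 and 8.92 ± 0.95 CPM (0.17, limma adjusted p = 0.78). On the other side, AI197445 averaged 0.72 and 0.80 CPM, and 1700006H21Rik was at 0 reads in all libraries.

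The genes whose levels went most closely with Zswim6 were listed by Pearson's r on log2(CPM + 0.1), as a description over points that share the groups and the fractions. Over the 16 libraries these were Mat2a, the methionine adenosyltransferase that makes S-adenosylmethionine (r = 0.86), Mthfd2, of mitochondrial folate metabolism (0.85), Wbp1l (0.83), Arrdc2, of the arrestin-domain family (0.81), and Gpsm2, a regulator of spindle orientation (0.80). Their log2 stress differences were 0.57, 1.60, 0.44, 1.45 and 0.30 in IP, and 0.11, 0.35, 0.15, 0.72 and 0.05 in INPUT. Over the 8 IP libraries they were Mks1 (0.99), Actr6 (0.99), Rasl11a (0.98), Bambi (0.97) and Abhd17b (0.95). For the relatives r was -0.61 (Zswim5), -0.46 (Zswim4) and -0.35 (Zswim8) over 16 libraries and -0.62, -0.68 and -0.34 over the 8 IP libraries.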

How the data were processed

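Libraries were made with the TruSeq kit after ribosomal RNA depletion from IP and INPUT of individually homogenised mice, 4 per group, and read as 69-base pairs. Reads were placed on mm10 by the authors using STAR, fragments with a unique placement were counted per RefSeq gene in HTSeq, and the submitters' processing notes also name edgeR and limma. The authors deposited 1 table per library with log2 CPM of 24060 genes. With the added constant removed, values were whole reads to within 0.01 at low counts, and no libraries were identical. At high counts the tolerance of this check grew in proportion to the count. Those reads gave the depths. Strandedness of the counting is not given in the sources used here.

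Differences were fitted on log2(CPM + 0.1) by limma 3.58.1 under R 4.3.3 (lmFit, eBayes with a trend). Genes entered a fit if their mean over its libraries exceeded 1 CPM, and p-values were adjusted by Benjamini and Hochberg over all of these. The pseudocount understates changes of low genes. The 4 members passed this filter in every comparison. IP, INPUT, naïve and stressed mice were compared on 8 libraries each, and the difference between both stress effects on 16. For single genes, group labels were also permuted exactly (70 labelings, two-sided). Libraries were treated as independent, and p-values measure only the spread between them. Intervals are those of the fit, and floors cover counting error only.

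The test of Zswim6 between IP and INPUT in naïve mice, foreseen in the design, is not given because that contrast enters the selection. Members and lists were chosen with earlier results of these data known. Genes named were the members, the other Zswim genes, the nearest 2 listed genes on each side, 3 lists (at most 3 genes per direction past the threshold), the 5 genes of highest correlation with Zswim6 and those next to it in order. Cul3, Ago2 and Spsb1, and Uba3 in naïve mice, were named outside the rule, Spsb1 and Uba3 after their values were seen. Exon lengths were those of GENCODE M21 (GRCm38), in which 23612 symbols (98.1%) matched 1 gene, and promoters from RefSeq. As alternatives, the pseudocount was set to 1 or 0.01 and the filter to none or to a mean above 5 CPM, and the others were limma-voom on recovered reads, quantile normalization, median-ratio rescaling, no variance trend, array weights, Xist as a covariate, all libraries in 1 model and each library left out. The fit for stress in IP was also run on simulated reads, with 200 changed genes and the same spread set for all genes. Its outcome is not given, and it does not cover the other comparisons or more variable genes. A listed gene and a sequence are not reported here. Tables were made in Python 3.11.15 with pandas 2.3.3 and NumPy 2.4.6, and plots with matplotlib 3.10.9.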

Additional observations from a re-analysis of the deposited data

Results flagged for a closer look

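The stress difference of Zswim6 on the log2 scale was larger in IP than in INPUT by 1.10 (95% interval 0.89 to 1.31), with the higher values in 4 of 4 stress libraries of each fraction. It is listed because the effect of stress differed between the fractions. The gene was picked for this difference, so no p is given for it. Each of the 4 members was also checked in each of its 4 groups for a library far from the other 3 by Dixon's ratio, and 0 of these 16 groups had one, where 0.8 would be expected by chance.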

How the results depend on the processing

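No paired analysis was possible because the labels do not say which IP and INPUT libraries came from 1 mouse, and the groups share no replicate numbers.

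The stress difference of Zswim6 was 1.34 to 1.40 in IP and 0.25 to 0.26 in INPUT over 11 alternatives, and that between fractions was 1.06 to 1.15 over 10. What depended on processing was IP against INPUT. With median-ratio rescaling and quantile normalization in that order, naïve values turned to 0.40 and 0.34 in Zswim6, 0.28 and 0.25 in Zswim4 and 0.59 and 0.54 in Zswim5. In stressed mice they were 0.29 and 0.26 in Zswim5, -0.12 and -0.12 in Zswim4 (not past the threshold) and 1.49 and 1.40 in Zswim6. Zswim8 in naïve mice was -0.10 with median-ratio rescaling and no longer passed, and Zswim7 in naïve mice was -0.07 with median-ratio rescaling and 0.28 with quantile normalization, past the threshold in neither. In stressed mice, quantile normalization also ended the calls of Zswim7 (-0.15, adjusted p = 0.49) and 6330408A02Rik (-0.20, 0.22). By construction both settings align the bulk of genes. For Zswim5 in stressed mice the value stayed at -0.34 but did not pass with no filter (adjusted p = 0.14) or no variance trend (0.065). The cause was not tested.

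Without a filter, with array weights, without a variance trend and with all 16 libraries in 1 model, 2, 143, 19 and 124 genes passed for stress in IP, against 55, and 1, 50, 0 and 2 in INPUT, against 6. Array weights gave 19 genes for the difference between both effects, against 3, and moved Zswim3 to 0.0087 there.

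Leaving out 1 library gave 17 to 122 genes for stress in IP (122 without naïve IP replicate 11), 1 to 32 in INPUT (32 without naïve INPUT replicate 14) and 2 to 28 for the difference (28 without naïve IP replicate 11). Zswim5 ranged from -0.42 to -0.18 for IP against INPUT in stressed mice, from -0.086 to 0.019 in naïve mice and from -0.094 to 0.011 for stress in INPUT. Zswim8 ranged from -0.10 to 0.00053 for stress in IP. Values near 0 of Zswim3 (-0.20 to 0.011 for the difference) and 6330408A02Rik (-0.15 to 0.041 for stress in IP and -0.058 to 0.13 for the difference) also changed sign. Where a printed interval of a gene other than Zswim6 spans 0, a difference was not detectable with 4 libraries a group. The intervals of Zswim6 rest on the values by which it was picked, so they describe it and test nothing.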
